A study of Sus scrofa with 15 samples.

Results

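CC chemokines and their receptors were described in liver RNA of piglets challenged with lipopolysaccharide (LPS). The set held 9 named genes, 7 ligands (CCL2, CCL4, CCL5, CCL8, CCL19, CCL20 and CCL22) and 2 receptors (CCR1 and CCR2). A gene counted as measured when its pig Ensembl identifier, paired with its symbol, had a row in the count table. By this rule 6 of the 9 genes, namely CCL2, CCL4, CCL5, CCL8, CCL19 and CCR1, were found among 31908 genes, of which 15029 carried a symbol. CCL20, CCL22 and CCR2 were not analysed here. The study assigned growing male piglets (Duroc x Large White x Landrace) to a CON group, injected with sterile saline, and an LPS group, injected intraperitoneally with 80 μg/kg of LPS. The liver was collected 4 h later, and RNA with a poly(A) tail was fragmented, part of it being kept as input for m6A immunoprecipitation. Only the input libraries, 3 per group, are used here. The labels do not say whether the 3 libraries of a group are 3 animals, so each p-value measures the spread between these libraries.

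CC chemokines are small secreted proteins named for a pair of adjacent cysteines near their start, and they draw leukocytes along a gradient through G protein-coupled receptors. In the liver, Kupffer cells, endothelial cells, stellate cells and hepatocytes can release them when bacterial products arrive by the portal vein. Inflammatory members such as CCL2 and CCL5 recruit monocytes and T cells, whereas homeostatic members such as CCL19 guide dendritic cells and lymphocytes.

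The CON libraries held between 5927348 and 10351491 counts and the LPS libraries between 4348478 and 19967417, LPS replicate 3 being the deepest. TMM factors, edgeR's correction for composition, lay between 0.979 and 1.11 except in LPS replicate 3 (0.735). Across tested genes LPS replicate 2 correlated by 0.923 to 0.945 with the CON libraries, whereas its correlation was 0.907 with LPS replicate 1 and 0.852 with LPS replicate 3. Values for a library are CPM, counts scaled to a common library size with the TMM factor, and mean ± SD is over 3 libraries. log2FC is the log2 fold change of the LPS group over the CON group, with its standard error (SE). A gene was called when edgeR's quasi-likelihood test gave a Benjamini-Hochberg adjusted p below 0.05 over 12774 tested genes and the fold change exceeded 1.5. For 1 gene, 3 libraries against 3 allow no two-sided p below 0.1 in an exact permutation test. In these bulk samples a change in the number of cells and a change in the RNA per cell cannot be told apart.

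All 6 measured genes passed the filter on low counts, and edgeR called 0 of them, against a background of 0.0548% of tested genes called higher and 0.0% called lower. At an unadjusted p below 0.05, CCL2, CCL5 and CCL19 were higher and CCL8 was lower in the LPS group. That is 3 of 6 genes higher, where 6.18% of all tested genes were, and 1 of 6 lower, where 6.33% were. CCL8 passed the filter through the CON libraries alone, so its direction was fixed by that filter and the counts over the 6 genes carry no weight as support. DESeq2 called CCL19 higher and CCL8 lower, with 1.91% of its genes called higher and 0.995% lower, and limma-voom called 0 of the 6. In 5 of the 6 genes LPS replicate 3 was the highest library, as it was in 27.2% of tested genes.

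**Figure D1:**
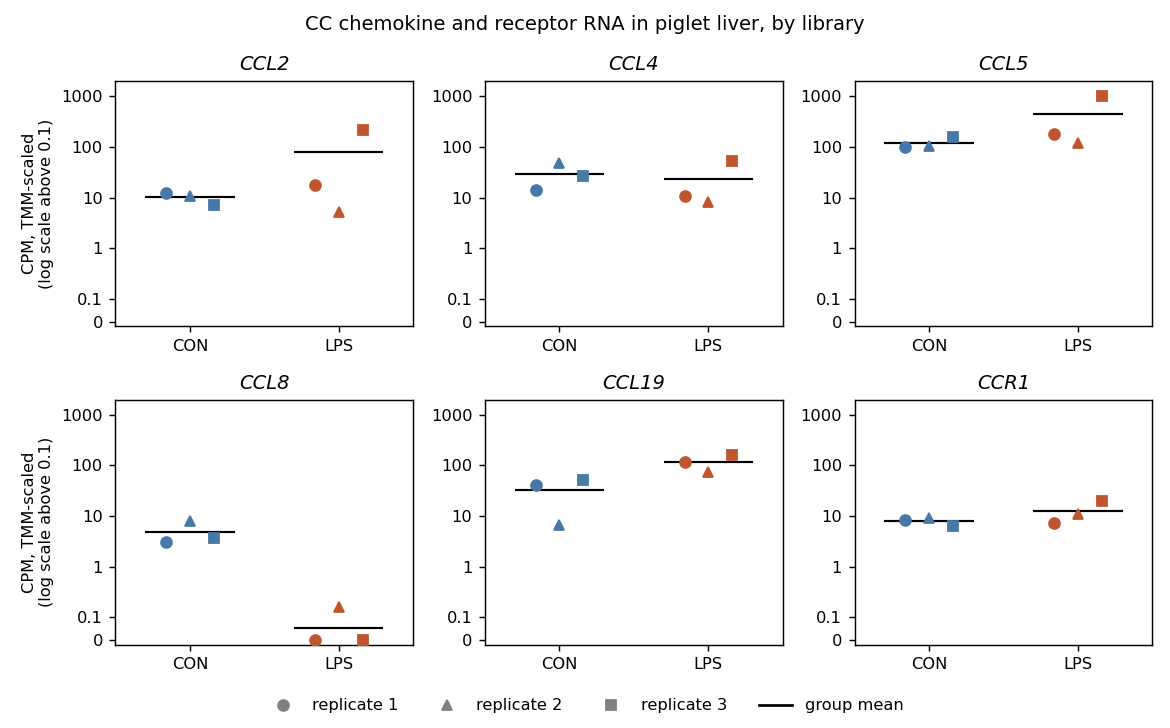
CPM of the 6 measured genes in each library (TMM-scaled, on a vertical axis that is logarithmic above 0.1), with CON libraries in blue, LPS libraries in orange, marker shape for the replicate number and a line at the group mean. CCL2 and CCL5 reached 217 and 1032 CPM in LPS replicate 3, whereas CCL8 was at 0, 0.164 and 0 CPM in LPS replicates 1, 2 and 3.

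CCL2 (ENSSSCG00000017723, chromosome 12 from 40798109 to 40800028, minus strand, 3 exon entries) encodes monocyte chemoattractant protein, the main ligand of CCR2. Its coordinates, like all others here, are those of the deposited table, and none of the sources used here gives the build. Exon entries are the exon intervals listed there for a gene, which need not be separate exons. CCL2 had 12.6, 10.6 and 7.12 CPM in CON replicates 1, 2 and 3 and 17.7, 5.24 and 217 CPM in LPS replicates 1, 2 and 3. LPS replicate 3 stood far above the rest, LPS replicate 1 was somewhat above every CON library, and LPS replicate 2 was below every one, so the groups overlapped. Relative to the CON mean, the CPM was 1.75-fold, 0.518-fold and 21.4-fold in the 3 LPS libraries. The group levels were 10.1 ± 2.78 and 79.8 ± 119 CPM, a log2FC of 2.99 (SE 1.11, edgeR adjusted p = 0.330). CCL2 therefore did not pass the adjusted threshold with all 6 libraries. Without LPS replicate 3 the log2FC was 0.18 (edgeR adjusted p = 0.918), while 3.55 without LPS replicate 2 (edgeR adjusted p = 0.0495) was a call, in a setting that called 3.76% of tested genes higher and 3.45% lower. Over all alternatives the adjusted p of CCL2 ran from 5.57e-10, in edgeR with no filter, to 0.961. With no filter the log2FC was 2.97 and the SE 0.42 instead of 1.11, so that low p rests on a smaller estimate of the spread between libraries. The lowest adjusted p given below for CCL8, CCL19 and CCR7 come from the same fit.

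CCL5 (ENSSSCG00000017705, chromosome 12 from 39648598 to 39659118, plus strand, 4 exon entries), also known as RANTES, attracts T cells, NK cells and monocytes through CCR1, CCR3 and other CC receptors. Its values were 102, 106 and 154 CPM in the CON libraries and 179, 119 and 1032 CPM in the LPS libraries. Again LPS replicate 3 was far above the others, and LPS replicate 2 lay inside the CON range. CCL5 averaged 121 ± 29.4 CPM in the CON group and 443 ± 511 CPM in the LPS group, a log2FC of 1.88 (SE 0.74, edgeR adjusted p = 0.350). LPS replicates 1, 2 and 3 were at 1.48, 0.990 and 8.56 times the CON mean. Leaving out LPS replicate 3 gave a log2FC of 0.32 (edgeR adjusted p = 0.778), and leaving out LPS replicate 2 gave 2.34 (edgeR adjusted p = 0.0450), which was a call. The adjusted p of CCL5 ran from 0.000792 to 0.882 over the alternatives. By mean CPM over the 6 libraries CCL5 ranked 352 of 12774 tested genes.

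CCL19 (ENSSSCG00000010966, chromosome 10 from 32110064 to 32112739, plus strand, 4 exon entries) is a ligand of CCR7, the receptor by which mature dendritic cells and naive T cells home to lymphoid tissue. It had 40.8, 6.72 and 50.9 CPM in the CON libraries and 120, 73.8 and 161 CPM in the LPS libraries. All 3 LPS libraries were above all 3 CON libraries, as in 6.52% of tested genes, and CON replicate 2 was well below the other CON libraries. CCL19 was the only measured CC gene of the 6 with this pattern. The means were 32.8 ± 23.2 and 118 ± 43.7 CPM, a log2FC of 1.84 (SE 0.63, edgeR adjusted p = 0.285). DESeq2 put it past the threshold (log2FC 1.89, adjusted p = 0.0459). Leaving out LPS replicate 3 left a log2FC of 1.57, and leaving out CON replicate 2 left 1.37, the lowest value over the alternatives, where the adjusted p ran from 0.000662 to 0.710.

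CCL8 (ENSSSCG00000040648, chromosome 12 from 40740023 to 40742022, minus strand, 3 exon entries), monocyte chemoattractant protein 2, attracts monocytes and other leukocytes through several CC receptors. It was low in the CON group and at 0 or 1 count in each LPS library, with 34, 52 and 38 counts in the CON libraries and 0, 1 and 0 counts in the LPS libraries. In CPM these were 3.04, 8.12 and 3.76 against 0, 0.164 and 0. Each LPS library lay below every CON library, as in 9.8% of tested genes. A count of 0 allows up to 3 counts, which is 0.654 CPM in LPS replicate 1 and 0.205 CPM in LPS replicate 3, both below the lowest CON value. The deepest LPS library, with 19967417 counts, held none.

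Summed over libraries and scaled to library size, CCL8 was 113 times as high in the CON group as in the LPS group (124 counts against 1), where the exact 95% interval, for counting error only, ran from 19.99 to 4517. The fitted log2FC was -6.47 (SE 0.97, edgeR adjusted p = 0.0637), the lowest among the 12774 tested genes. That fitted value depends on the prior count. Whether CCL8 was called depended on the processing. The direction was the same throughout, but all these fits reuse the same counts, so it adds no separate support. DESeq2 called it, with all 6 libraries (log2FC -6.64, adjusted p = 7.47e-05) and with each library left out, and edgeR called it without the filter on low counts, where 2.28% of genes were called higher and 1.48% lower. Leaving out LPS replicate 2 or LPS replicate 3 in edgeR made it a call (adjusted p = 0.0052 and 0.0386), and in the latter setting 0.31% of tested genes were called higher and 0.151% lower. In edgeR, leaving out CON replicate 1, 2 or 3 or LPS replicate 1 gave adjusted p of 0.543, 0.240, 0.196 and 0.199. The range over all alternatives was 4.30e-09 to 0.543. Of 11843 genes with at least 10 counts in every CON library, CCL8 was the only 1 with no more than 1 count in every LPS library, a pattern looked for after its values were seen. The reverse pattern was held by 2 genes.

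CCL4 (ENSSSCG00000032343, chromosome 12 from 39478885 to 39557358, minus strand), macrophage inflammatory protein 1-beta, is an inflammatory ligand released by macrophages, NK cells and T cells. Its CPM was 14.4, 48.3 and 26.5 in the CON libraries and 10.7, 8.18 and 52.4 in the LPS libraries. LPS replicates 1 and 2 were below every CON library, while LPS replicate 3 was above every one, so the LPS group spanned the CON group on both sides. The means were 29.7 ± 17.2 and 23.8 ± 24.9 CPM, a log2FC of -0.30 (SE 0.70, edgeR adjusted p = 0.896). Without LPS replicate 3 it was -1.64 (edgeR adjusted p = 0.245), and the adjusted p lay between 0.0679 and 0.997 in all alternatives. In 6 alternatives that leave out CON replicate 2, LPS replicate 1 or LPS replicate 2, the sign turned positive.

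Counts of CCL4 are uncertain. The deposited model joins 25 exon entries, in 3 widely spaced blocks over a span of 78474 bases, with 1821 bases of exon in all. It takes in 815 of the 841 exon bases of ENSSSCG00000047189 on the same strand, which held 1 count in all 6 libraries together. Of those 815 bases, 605 are also shared with ENSSSCG00000050539 on the other strand, while the first block, of 1006 bases, is shared with neither. CCL3L1, a ligand of CCR1, lies within the span on the other strand with 0 shared exon bases. None of the sources used here says how reads in such overlaps were counted. CCL3L1 had 49, 117 and 86 counts in the CON libraries and 16, 22 and 199 in the LPS libraries. Per length, the ratio of CCL4 to CCL3L1 was 0.760, 0.611 and 0.720 in the CON libraries and 0.708, 0.525 and 0.892 in the LPS libraries, so the range of the former lay inside that of the latter.

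CCR1 (ENSSSCG00000011322, chromosome 13 from 29227220 to 29233960, minus strand, 2 exon entries), a receptor of CCL5 and other inflammatory ligands on monocytes and neutrophils, had 8.31, 9.37 and 6.33 CPM in the CON libraries. The LPS libraries had 7.20, 11.1 and 19.5 CPM. LPS replicate 3 was highest, LPS replicate 1 lay inside the CON range, and the groups overlapped. The means were 8.004 ± 1.55 and 12.6 ± 6.30 CPM, a log2FC of 0.68 (SE 0.42, edgeR adjusted p = 0.546). Without LPS replicate 3 the log2FC was 0.22, and CCR1 was called under none of the alternatives.

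The levels of the 6 genes were compared after dividing CPM by the exon length in the table (CPM per kb). CCL5 was the highest of the 6 genes in every library, with 101, 105 and 153 CPM per kb in the CON libraries and 177, 118 and 1025 in the LPS libraries. In the CON group the mean level fell in the order CCL5 (120 CPM per kb), CCL19 (40.3), CCL4 (16.3), CCL2 (13.3), CCL8 (5.89) and CCR1 (2.65). The ranges over CON libraries of CCL19 and CCL4, of CCL4 and CCL2, and of CCL2 and CCL8 overlapped. CCL2 was nevertheless above CCL8 within each CON library, whereas the order of the other overlapping neighbours changed from library to library. In the LPS group the order was CCL5 (440 CPM per kb), CCL19 (145), CCL2 (105), CCL4 (13.1), CCR1 (4.17) and CCL8 (0.065), and only CCR1 and CCL8 were neighbours whose ranges did not overlap. Within each LPS library the neighbours kept this order, except that CCL2 was above CCL19 in LPS replicate 3. CCL8 thus stood above CCR1 in each CON library and below it in each LPS library.

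The summed level of the 5 measured ligands was 179, 163 and 244 CPM per kb in the CON libraries and 353, 221 and 1537 in the LPS libraries. LPS replicate 3 was 7.86 times the CON mean, and LPS replicate 2 lay inside the CON range. CCL5 made up between 50.2% and 66.7% of the sum in every library. CCL19 held 41.6% and 41.05% in LPS replicates 1 and 2, compared with 27.98%, 5.05% and 25.6% for CON libraries and 12.9% for LPS replicate 3. CCL2 was 18.6% of the sum in LPS replicate 3 and 9.27% or less elsewhere. CCL4 was 4.41%, 16.2% and 5.96% in the CON libraries and 1.66%, 2.04% and 1.87% in the LPS libraries, and these shares, singled out after their values were seen and not tested, did not overlap between groups. A share also depends on the sum of the other ligands. In LPS replicate 3 CCL4 itself was at its highest level, 28.8 CPM per kb, and by CPM its groups overlapped.

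**Figure D2:**
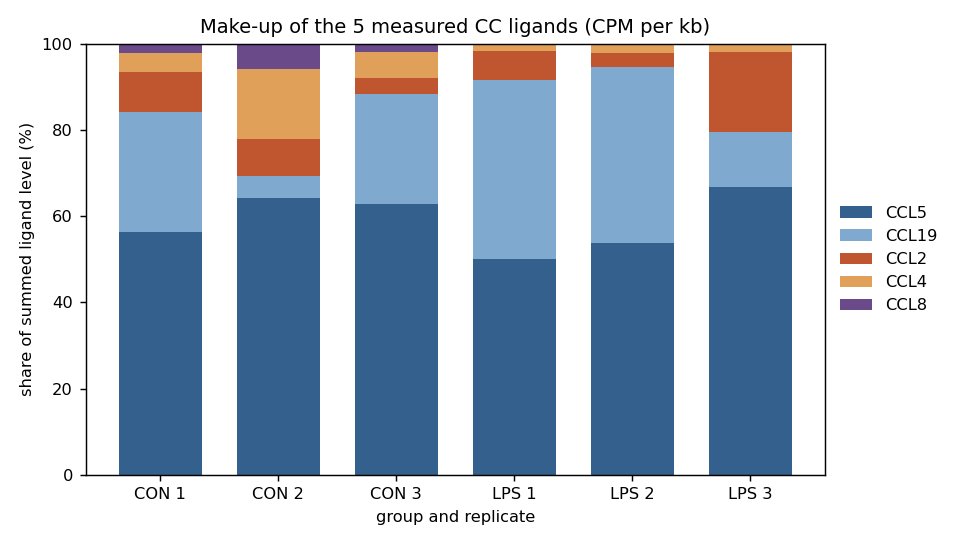
Share of each measured ligand in the summed CPM per kb of CCL2, CCL4, CCL5, CCL8 and CCL19, as a stacked bar for each CON and LPS library, in percent. CCL5 is the largest share in each bar, CCL19 takes 41.6% and 41.05% in LPS replicates 1 and 2, and CCL8 is 5.90% in CON replicate 2 and at most 0.0879% in the LPS libraries.

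Of these ligands, 4 lie on chromosome 12 in the deposited coordinates. CCL4 and CCL5 are 91240 bases apart, and CCL8 and CCL2 are 56087 bases apart on the same strand, 1080905 bases from CCL5. In LPS replicate 3 CCL2 had 3173 counts and CCL8 had 0, and in LPS replicate 1 they had 81 and 0 counts. Per length, CCL2 was 4.61, 1.45 and 2.11 times CCL8 in the CON libraries and 35.6 times CCL8 in LPS replicate 2. Between them lies CCL11 (eotaxin, a CCR3 ligand), which had 6, 0 and 0 counts in the CON libraries and 11, 1 and 294 in the LPS libraries and did not pass the filter on low counts. CCL19 lies on chromosome 10 next to CCL21, at a gap of 15481 bases, and CCR1 lies on chromosome 13 at 17999 bases from CCR3.

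The family beyond the named genes was taken from a list of 33 other CC chemokines, CC receptors and atypical receptors, written from general knowledge. Of these 22 had a row, 10 were tested, 2 had a positive and 8 a negative log2FC under each of 3 library scalings, and the median log2FC was -0.53, against 0.01 over all tested genes. edgeR called 0 of the 10 with all 6 libraries, with 3 at an unadjusted p below 0.05 in either direction, where 12.5% of all tested genes were, DESeq2 called CCR7 alone, and limma-voom called 0. LPS replicate 3 was the highest library in 2 of the 10. CCL27 was at 0 counts in every library.

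Among the other ligands, CCL16, a chemokine made largely by the liver, had the highest level, at 1139 ± 266 CPM against 866 ± 481 CPM in the LPS group (log2FC -0.39, SE 0.42). Per length CCL5 was 0.0251, 0.0384 and 0.0559 times CCL16 in the CON libraries and 0.125, 0.0632 and 0.261 times in the LPS libraries. The CCL5 to CCL16 ratio was thus higher in each LPS library than in each CON library, a ratio picked after its values were seen and not tested. CCL14, a plasma chemokine that binds CCR1 once processed, was 8.32 ± 2.03 against 4.01 ± 1.59 CPM (log2FC -1.07, SE 0.42, edgeR adjusted p = 0.353). Every LPS library was below every CON library for CCL14, as in 9.8% of tested genes. CCL3L1 was 10.4 ± 7.14 against 6.89 ± 5.80 CPM (log2FC -0.53, SE 0.65).

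CCL21, which shares the receptor CCR7 with CCL19, had 1017, 174 and 194 counts in the CON libraries and 22, 344 and 32 in the LPS libraries. LPS replicates 1 and 3 were below every CON library and LPS replicate 2 was within their range of counts. Its log2FC was -1.13 (SE 1.06, edgeR adjusted p = 0.702). Without LPS replicate 2 it was -3.79, a call at an edgeR adjusted p of 0.0217, within a range over the alternatives from 3.39e-07 to 0.994. It was -0.14 without CON replicate 1, which held 1017 of the counts, and -0.55 without LPS replicate 3. Per length CCL19 was 0.299, 0.165 and 1.77 times CCL21 in the CON libraries and 16.6, 0.873 and 49.2 times in the LPS libraries, and the groups overlapped. The deposited model of CCL21 runs from 31933733 to 32094583 with 543 exon bases, and ENSSSCG00000040707 overlaps its span on the same strand. Shared exon bases were not counted there, so the counts of CCL21 are uncertain too.

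Receptors of the measured ligands were followed by their levels. CCR7, which binds CCL19 and CCL21, had 18, 18 and 58 counts in the CON libraries and 54, 26 and 482 in the LPS libraries. It averaged 3.39 ± 2.12 and 16.3 ± 14.9 CPM, with overlap between the groups, a log2FC of 2.28 (SE 0.73, edgeR adjusted p = 0.263). DESeq2 called it (adjusted p = 0.0323), and without LPS replicate 3 the log2FC was 1.23 in edgeR. Its adjusted p ran from 0.000104 to 0.722 over the alternatives.

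CCR3, the eotaxin receptor, was 6.29 ± 3.29 against 3.54 ± 1.79 CPM (log2FC -0.83, SE 0.51). CCR4, a receptor of CCL22, had 8, 3 and 5 counts in the CON libraries and 0, 1 and 6 in the LPS libraries. CCR6, the receptor of CCL20, had 0, 1 and 0 counts and 0, 2 and 5 counts, so neither receptor was tested.

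Atypical receptors bind chemokines without G protein signaling. ACKR2, a scavenger of inflammatory CC ligands that include CCL2, CCL4, CCL5 and CCL8, had 17, 6 and 23 counts in the CON libraries and 25, 30 and 65 in the LPS libraries. In CPM it was 1.58 ± 0.67 against 4.93 ± 0.51 (log2FC 1.61, SE 0.47, edgeR adjusted p = 0.223). Each LPS library was above each CON library, as in 6.52% of tested genes. CCRL2, a non-signaling receptor, was 2.32 ± 0.07 against 1.49 ± 1.05 CPM (log2FC -0.53, SE 0.57). ACKR1, which binds many chemokines on venules and red cells, had 25, 7 and 1 counts and 23, 6 and 13 counts, and ACKR4, a scavenger of CCL19 and CCL21, had 34, 4 and 12 counts and 1, 7 and 4 counts. ACKR1 and ACKR4 did not pass the filter.

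**Figure D3:**
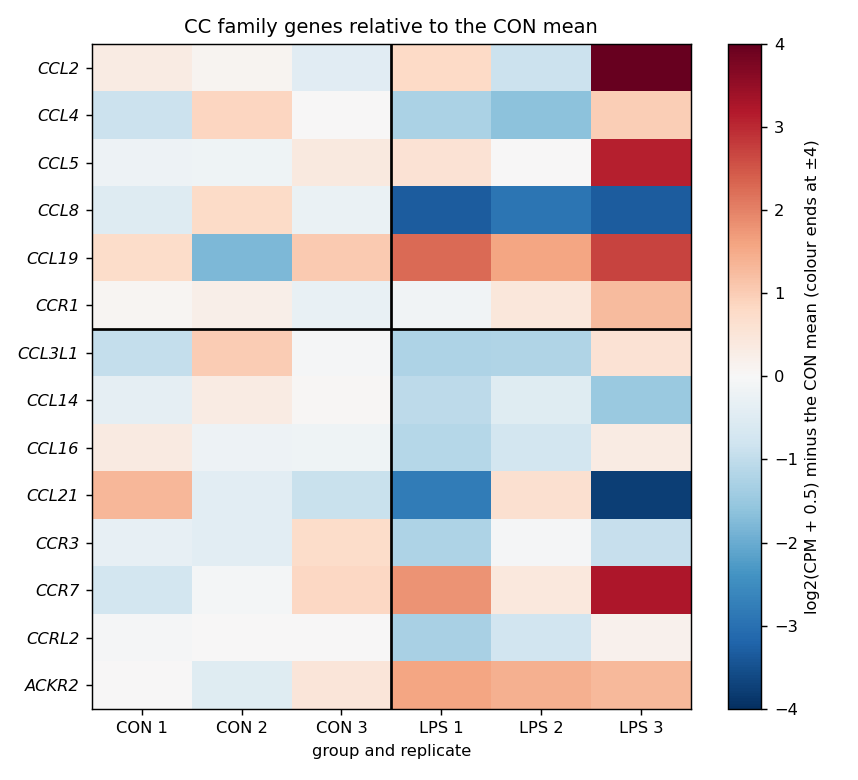
log2(CPM + 0.5) of 14 tested CC genes in each library minus the CON mean of the same gene, with the 6 named genes above the line and 8 other genes described in the text below it. Red is higher and blue lower than the CON mean, and colours end at 4. CCL2 in LPS replicate 3 is at the red end, CCL8 is deep blue in all 3 LPS libraries, and CCL19 and ACKR2 are red in all 3.

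Downstream of these receptors, a list of 46 genes for chemokine receptor signaling (G proteins, PI3K and Rac regulators, receptor kinases, arrestins and kinases) had 43 tested genes, 21 higher and 22 lower, with a median log2FC of -0.01, which was 0.03 with RLE factors and -0.15 with scaling to total counts. edgeR called 0, as did DESeq2 and limma-voom, and 2 of the 43 were at an unadjusted p below 0.05, against 12.5% of all tested genes in either direction. RGS2, a brake on G protein signaling and 1 of these 2 genes, had a log2FC of 1.48 (SE 0.54, edgeR adjusted p = 0.314). It was named after its values were seen, and edgeR called it without LPS replicate 2. GNAI2, the G protein subunit with the highest level, was 335 ± 48.4 CPM against 273 ± 40.7 CPM in the LPS group (log2FC -0.29, SE 0.30). GNB1, RAC1, CRK and GRK2, the next highest, had log2FC of 0.35, 0.51, 0.31 and 0.45, none of them at a p below 0.05.

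Genes whose pattern over the 6 libraries was most like that of CCL5, CCL19 and CCL2, the 3 of the 6 named genes with the highest mean CPM, were found by the root mean square difference of log2 CPM relative to the CON mean, over 10755 tested genes with a symbol. For CCL5 they were PTPN1, a tyrosine phosphatase (0.19 on the log2 scale), the AP-1 subunit JUN (0.26) and OSER1 (0.28). For CCL19 they were the matrix metalloproteinase MMP7 (0.36), the syntaxin STX3 (0.38) and the actin-binding TAGLN (0.48). For CCL2 they were FOS, another AP-1 subunit (0.35), CXCL10, a CXC chemokine (0.35), and DUSP1, a MAP kinase phosphatase (0.42). The measure rewards a match in LPS replicate 3, where CCL2, FOS, CXCL10 and DUSP1 were 4.43, 4.04, 3.88 and 3.75 above the CON mean on the log2 scale. In CON replicate 2, CCL19, MMP7, STX3 and TAGLN were at -1.82, -1.37, -1.34 and -1.22 on the same scale, each the lowest of its 6 values.

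Markers of liver and immune cell types were summed by list. Neither a link to the named genes nor their part in the results was tested. Monocyte markers (11 listed, 7 tested, 6 higher and 1 lower, median log2FC 0.35) summed to 676 to 1154 CPM in the CON libraries and 1166 to 2776 in the LPS libraries, with CD14 highest and LYZ at 0 in every library. The monocyte sum rests largely on CD14 (719 ± 174 against 1496 ± 771 CPM), whose own groups overlapped. CSF1R is on both this list and the Kupffer cell or macrophage list. Kupffer cell or macrophage markers (13 listed, 11 tested, 0 higher and 11 lower, median -0.48) summed to 2011 to 3261 and 1376 to 2316 CPM. Neutrophil markers (13 listed, 6 tested, 5 higher and 1 lower, median 3.04) summed to 15.2 to 26.3 and 75.3 to 316 CPM, highest in LPS replicate 3. The monocyte, dendritic cell, cholangiocyte and hepatocyte sums were also highest in that library. Of the 6 tested neutrophil markers edgeR called 1 higher, where 0.0548% of all tested genes were. T or NK cell markers (18 listed, 13 tested, 3 higher and 10 lower, median -0.20) summed to 196 to 288 and 135 to 331 CPM, with LPS replicate 3 highest and LPS replicate 1 lowest.

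Dendritic cell markers (10 listed, 7 tested, 3 higher and 4 lower, median -0.06) summed to 121 to 199 CPM in the CON libraries. In the LPS libraries they summed to 213 to 686 CPM, without overlap. The sums of the monocyte, neutrophil and cholangiocyte markers did not overlap between the groups either. The dendritic cell sum rests on BATF3 (24.7 ± 4.91 against 297 ± 233 CPM), and CCR7 is itself on that list. B or plasma cell markers (9 listed, 7 tested) had a median log2FC of -0.26 and sums of 30.6 to 112 and 20.7 to 48.1 CPM. Endothelial markers (10 listed, 8 tested, 1 higher and 7 lower, median -0.46) summed to 277 to 598 and 237 to 388 CPM, and stellate cell or fibroblast markers (10 listed, 9 tested, median -0.11) to 960 to 1367 and 713 to 1503 CPM. Cholangiocyte markers (6 listed, 5 tested, 5 higher, median 1.42) summed to 22.2 to 33.1 and 35.8 to 120 CPM. Hepatocyte markers (12 listed and tested, 5 higher and 7 lower, median -0.23) summed to 69315 to 90271 and 58976 to 117895 CPM, and ALB alone averaged 26643 ± 9867 and 15720 ± 3686 CPM, so the tissue carried the RNA of liver.

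**Figure D4:**
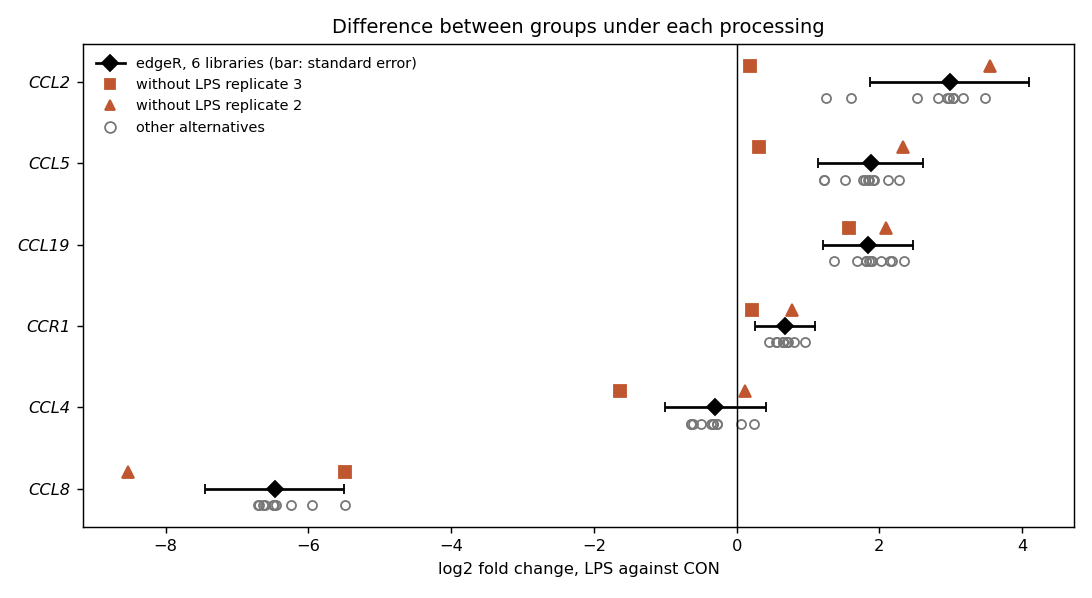
log2FC of the LPS group against the CON group for the 6 genes, with edgeR on 6 libraries as a diamond (bar, standard error), edgeR without LPS replicate 3 as a square, without LPS replicate 2 as a triangle, and the other alternatives as open circles. DESeq2 with a library left out is not drawn. CCL2 moves from 2.99 to 0.18 and CCL5 from 1.88 to 0.32 without LPS replicate 3, CCL19 stays between 1.37 and 2.34, and CCL8 stays at or below -5.49.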

How the data were processed

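For the 6 input libraries the authors deposited raw counts of reads per gene, as 1 table with each gene's exons and length. The submitters' processing notes name cutadapt 1.9.3 and HISAT2, while the pig build, counting program, strand setting and treatment of multi-mapped reads are not given in the sources used. Columns were matched to libraries by group and replicate number (0 sample columns unmapped), and CON replicates 1 and 2 have 2 sequencing entries but 1 column each. No library pair agreed within sampling noise (chi-square per gene at least 51.8). The m6A-IP libraries were not analysed here, and no sequences were used.

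The test was run with edgeR 4.0.16 in R 4.3.3 (filterByExpr, minimum count 10, TMM, robust glmQLFit and glmQLFTest, no block). SE is log2FC over the root of the F statistic. The tests were checked on simulated data. The alternatives were DESeq2 1.42.0, limma-voom (limma 3.58.1), scaling by RLE or by total counts, filters of none or of 10 counts in each library, a replicate block, leaving out each library, and fold thresholds of none or 2. DESeq2 with each library left out was added after seeing the data. DESeq2 gave an adjusted p for 14372 genes and NA was kept as NA. The named genes, gene lists and tests were chosen with earlier results of these data known. Of other lists the text names called genes, else the 5 (markers, up to 3) with the highest mean CPM, besides the receptors of the named ligands and atypical receptors, except where a choice after seeing values is stated. The values of some single genes that this rule names are not reported.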

Additional observations from a re-analysis of the deposited data

How the results depend on the processing

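With all 6 libraries edgeR called 7 genes higher and 0 lower. The higher and lower counts were 11 and 1 with scaling to total counts, 536 and 349 with no filter, 275 and 143 with DESeq2, and 4 and 2 with limma-voom. At least 10 counts in every library gave 0 higher, and RLE factors gave 1 lower. Leaving out 1 library gave 0 to 512 higher and 0 to 470 lower in edgeR. In DESeq2, leaving out CON replicates 1, 2 and 3 and LPS replicates 1, 2 and 3 gave 90, 142, 182, 126, 780 and 173 higher and 30, 40, 60, 50, 736 and 142 lower. Of the named CC genes, edgeR called 0 higher and 0 lower, against 3 and 1 with no filter and 1 and 1 with DESeq2. Leaving out 1 library gave 0 to 2 higher and 0 to 1 lower in edgeR (2 and 1 without LPS replicate 2), and 0 to 3 and 1 in DESeq2. Of the other CC genes 0 were called, against 2 with no filter, 1 with DESeq2, 0 to 3 in edgeR and 0 to 2 in DESeq2 leaving out 1 library. The cause was not tested. The log2 fold change of CCL4, -1.64 to 0.24 in edgeR leaving out 1 library, turned positive in edgeR without CON replicate 2 (0.24), LPS replicate 1 (0.06) or LPS replicate 2 (0.12), and in DESeq2 without the same libraries (0.26, 0.091 and 0.13). Of 113 recomputed values for the 6 genes, 86 kept their direction and side of the threshold, 21 passed it in the same direction, and 6 reversed.

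Same-numbered CON and LPS libraries deviated from their group means with correlations of -0.24, 0.22 and 0.03, and differently numbered ones with -0.25 to 0.22. Deviations within a group of 3 cancel each other, so these correlations cannot decide whether the replicate numbers pair the libraries. With the replicate block edgeR called 42 genes higher and 9 lower, and 1 of the named CC genes, CCL8, lower. Scaling to total counts moved the median log2 fold change of all tested genes from 0.01 to -0.12 and turned the direction of none of the 6 genes. CCL8 could not be tested with at least 10 counts in every library. With 3 libraries per group, and LPS replicate 3 deciding CCL2 and CCL5, differences under the spread between libraries were not detectable. Counting error is largest for CCL8.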

Other observations

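Genes within 100000 bases of the named CC genes were listed from the deposited coordinates, and those below were singled out after their values were seen. XCR1, the receptor of the C chemokine XCL1 on cross-presenting dendritic cells, lies 67583 bases from CCR1 and had 66, 28 and 51 counts in the CON libraries and 8, 14 and 71 in the LPS libraries (log2 fold change -0.73, edgeR adjusted p = 0.558). CCL1, a CCR8 ligand 8612 bases from CCL8, had 0, 0 and 1 counts in the CON libraries and 0, 0 and 16 in the LPS libraries, so its counts lay in LPS replicate 3. Between CCL4 and CCL5, ENSSSCG00000033457, which carries no symbol in the table used here, had 23, 12 and 17 counts in the CON libraries and 10, 67 and 151 in the LPS libraries. Its log2 fold change was 2.07 (edgeR adjusted p = 0.218). TAF15, a general transcription factor subunit 27766 bases from CCL5, had a log2 fold change of 0.02 (edgeR adjusted p = 0.988).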
